A study of Mus musculus with 6 samples.

Results

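The genes described here are the long intergenic noncoding RNAs (lincRNAs) that were expressed in the testis of mice at 5 days postpartum (dpp), with and without *Srsf1* in germ cells. A lincRNA was counted as expressed, and so chosen on its measured level, if its gene was labelled lincRNA, lay on chromosomes 1 to 19 and had a mean of at least 1 FPKM (fragments per kilobase of gene scaled to the number of mapped fragments) over the 6 samples. Of 54532 genes in the deposited table, 5559 carried that label, 2935 of these had a value above 0 in any sample, and 243 reached the level. After removal of 3 genes on X or Y and of the imprinted *H19*, *Meg3* and *Mirg*, 237 lincRNAs were left as members. The members just inside the limit were *4930558J18Rik* at 1.003 FPKM and *Gm35167* at 1.006 FPKM, and the lincRNAs just outside it were *Gm36738* at 0.9996 FPKM and *1700054O05Rik* at 0.992 FPKM. Both groups had a mean of at least 1 FPKM for 199 members, only the Ctrl group did for 23 members and only the cKO group did for 15 members, so that these 38 entered through the group in which they were higher.

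SRSF1 is a serine/arginine-rich splicing factor, and the study compared testes with and without it to ask what it does in spermatogonia. The 3 conditional knockout samples (cKO) came from *Vasa*-Cre *Srsf1* Fl/del mice, in which Cre is driven in germ cells and leaves a null allele, whereas the genotype of the 3 control samples is given only as Ctrl. Whole testes were used, so Sertoli, Leydig, peritubular and blood cells kept *Srsf1*, and fewer cells of a type cannot be told apart from less RNA per cell. *Srsf1* was at 82.1, 89.1 and 88.4 FPKM in the Ctrl samples and at 45.1, 46.3 and 51.6 FPKM in the cKO samples, a log2 difference of -0.85 ± 0.09 (SE) with a limma adjusted p of 0.058. The labels' extraction text speaks of retinas, but the highest value of any of 10 retina markers in any sample was 0.311 FPKM, and testis markers were abundant. The study's methods call the 3 samples of each group biological replicates, and neither they nor the labels say how many animals a sample came from.

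lincRNA genes are transcribed by RNA polymerase II outside protein-coding genes, and their RNAs are capped, often spliced and in many cases polyadenylated. Some act as RNA, as the scaffold of a nuclear body or as a sponge for RNA-binding proteins, some carry snoRNAs or microRNAs that are cut out of the transcript, and for many no function is known. The testis is known for the large number of lincRNAs that its germ cells transcribe.

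The sequences shown first are those of microRNAs whose genes lie inside members, since for these lincRNAs the known product is a short RNA. The member with the highest level, *Gm2044* (chr7:139957005-139958039, minus strand, mm10), holds the gene of miR-202, a microRNA known from the gonads. *6720427I07Rik* holds let-7d, *E130102H24Rik* holds miR-101a, *Mir142hg* holds miR-142a, a microRNA of blood cells, and *Mir17hg* holds the miR-17 to miR-92 cluster, which is known as a growth-promoting cluster. Mature sequences are from RefSeq (GRCm38.p6), and capitals mark the seed, bases 2 to 8, which pairs with target RNAs.
miR-202-3p: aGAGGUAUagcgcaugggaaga
miR-202-5p: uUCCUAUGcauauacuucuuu
let-7d-5p: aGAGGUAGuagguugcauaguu
miR-101a-3p: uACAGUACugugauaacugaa
miR-142a-3p: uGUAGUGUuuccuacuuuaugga
miR-17-5p: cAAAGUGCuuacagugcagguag
miR-20a-5p: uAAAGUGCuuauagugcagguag
miR-18a-5p: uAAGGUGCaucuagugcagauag
miR-19a-3p: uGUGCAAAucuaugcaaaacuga
miR-19b-3p: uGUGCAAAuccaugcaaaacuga
miR-92a-3p: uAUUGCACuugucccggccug
In the cluster, miR-17-5p and miR-20a-5p had the same seed, as had miR-19a-3p and miR-19b-3p, while miR-18a-5p and miR-92a-3p each had another. The seeds of miR-202-3p and let-7d-5p shared their first 6 of 7 bases. The data hold the levels of the host genes, not of these microRNAs.

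Promoters are shown for 3 of the members with the clearest lower values in cKO and for *Snhg10*, which was among those with higher values. Each window runs from 250 bases before to 50 after the RefSeq start (GRCm38.p6), at chr15:83367248-83367547 (minus), chr12:76444247-76444546 (plus), chr15:97167195-97167494 (minus) and chr12:105032230-105032529 (minus). Capitals mark matches, on either strand, to GGGCGG (a GC box), CACGTG (an E-box), CCAAT and ATTTGCAT (an octamer).
1700001L05Rik promoter: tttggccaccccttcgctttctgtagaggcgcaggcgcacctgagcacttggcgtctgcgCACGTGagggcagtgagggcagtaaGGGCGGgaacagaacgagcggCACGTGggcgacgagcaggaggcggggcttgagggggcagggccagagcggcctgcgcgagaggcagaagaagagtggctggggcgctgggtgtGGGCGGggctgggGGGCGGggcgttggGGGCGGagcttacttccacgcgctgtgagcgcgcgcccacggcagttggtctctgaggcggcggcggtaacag
Gm10451 promoter: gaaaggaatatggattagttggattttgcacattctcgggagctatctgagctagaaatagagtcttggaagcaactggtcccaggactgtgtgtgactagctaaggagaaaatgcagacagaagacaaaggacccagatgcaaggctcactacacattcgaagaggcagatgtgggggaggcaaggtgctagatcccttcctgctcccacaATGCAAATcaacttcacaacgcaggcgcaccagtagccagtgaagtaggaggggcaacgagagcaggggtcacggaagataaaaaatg
Gm32885 promoter: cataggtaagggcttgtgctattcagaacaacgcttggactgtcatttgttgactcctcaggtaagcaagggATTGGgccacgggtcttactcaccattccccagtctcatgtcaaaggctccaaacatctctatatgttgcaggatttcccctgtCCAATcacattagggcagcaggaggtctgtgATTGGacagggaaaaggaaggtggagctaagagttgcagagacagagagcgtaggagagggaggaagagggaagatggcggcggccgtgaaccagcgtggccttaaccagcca
Snhg10 promoter: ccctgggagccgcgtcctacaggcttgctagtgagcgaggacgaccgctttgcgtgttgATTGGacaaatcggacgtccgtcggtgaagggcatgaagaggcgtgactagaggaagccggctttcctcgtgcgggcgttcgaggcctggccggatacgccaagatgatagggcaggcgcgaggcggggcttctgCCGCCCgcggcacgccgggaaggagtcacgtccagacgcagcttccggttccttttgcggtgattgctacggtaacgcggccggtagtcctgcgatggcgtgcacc
The window of *1700001L05Rik* held GGGCGG at 4 places and CACGTG at 2, that of *Gm32885* held CCAAT at 3, that of *Gm10451* held ATTTGCAT at 1, and that of *Snhg10* held CCAAT and GGGCGG at 1 each. A RefSeq promoter was found for 110 members, and for 72 of them it began within 100 bases of the deposited start. Among those 72 windows, 50% held GGGCGG, 40.3% CCAAT, 8.33% CACGTG, 2.78% ATTTGCAT and 9.72% TATAAA. Among all 32851 RefSeq windows of the same length the shares were 35.7%, 37.4%, 7.15%, 1.74% and 13.6%. Those windows were not limited to expressed genes or to 1 start per gene, so the sets are unlike. The median GC content was 56.7% in the members' windows and 52.7% in all windows, and the median ratio of observed to expected CpG was 0.639 against 0.384. A match describes the letters of a window and is not a binding site.

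The members were a small and mostly weak part of the testis transcriptome. The 6 libraries held 15448191 to 18964743 reads assigned to genes, of which the members took 52510 to 58494, or 0.304% to 0.363%. The summed level of the members was 1474, 1355 and 1382 FPKM in Ctrl, against 1476, 1481 and 1576 FPKM in cKO, so that the cKO sums lay slightly above the Ctrl sums in each sample. The median mean level of a member was 2.01 FPKM, 118 members lay between 1 and 2 FPKM, and 23 had at least 10 FPKM. At the median a member had 51 reads per sample, against 607 for a protein-coding gene tested, and 44 members had a mean of fewer than 20 reads, for which counting error is large. A count of 3 reads, taken as the floor, was worth 0.158 to 0.194 FPKM for a gene of 1 kb. The median gene length was 1337 bases, from 149 to 20771, against 4269 for protein-coding genes. In the annotation (GENCODE vM21) a member had a median of 3 exons, 132 members had 1 annotated transcript, and 32 had a single exon.

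The top 10 members carried 40.5% to 50.2% of the summed level. *Gm2044* led in 5 of the 6 samples, at 156, 168 and 145 FPKM in Ctrl, against 136, 128 and 135 FPKM in cKO. Its 3 cKO values lay below its 3 Ctrl values, at a log2 difference of -0.23 ± 0.09 (SE) that did not pass the test (limma adjusted p = 0.29). In cKO 3 the first place went to *Gm10076*, a single-exon gene that reached 174 FPKM there, 38.2 and 53.5 FPKM in the other cKO samples and 80.0, 17.2 and 59.0 FPKM in Ctrl. Of its stretches of 50 bases, 69.9% also occur in other genes, the most in *Rpl41*, the gene of a ribosomal protein. Its reads thus cannot be told apart from those of such genes with certainty.

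*Malat1*, an abundant nuclear RNA that gathers in nuclear speckles together with SR proteins, was at 55.4, 40.9 and 49.8 FPKM in Ctrl, against 53.4, 69.9 and 102 FPKM in cKO. cKO 2 and cKO 3 lay above all Ctrl samples and cKO 1 among them, with a log2 difference of 0.58 ± 0.23 (limma adjusted p = 0.30). *AU020206* was at 60.0, 46.2 and 50.9 FPKM in Ctrl, against 68.2, 62.0 and 70.4 FPKM in cKO, without overlap (0.35 ± 0.11, limma adjusted p = 0.22). *AC167229.1* was at 79.2, 53.1 and 65.9 FPKM in Ctrl, against 62.6, 40.4 and 36.6 FPKM in cKO, and cKO 1 lay inside the Ctrl range. Its nearest coding gene, 29452 bases away, is *Kitl*, the ligand of the germ cell receptor KIT. Of the stretches of 50 bases of *AC167229.1*, 19.8% are shared with other genes, the most with *Gm14226*. *2900097C17Rik*, the mouse *Norad*, an RNA that binds Pumilio proteins, was at 49.9, 43.2 and 56.6 FPKM in Ctrl, against 51.6, 56.0 and 69.1 FPKM in cKO. Only cKO 3 lay above the Ctrl range for it, and 39.5% of its stretches of 50 bases are shared with other genes, the most with *Gm7292*. *Gm26917* and *Gm45889* overlapped between the groups, with log2 differences of -0.07 ± 0.13 and -0.10 ± 0.12, and *Snhg6* and *Epb41l4aos*, both snoRNA hosts, are described below with their kind. Neighbours in this order from *Gm10076* to *Snhg6* differed by less than the spread between samples.

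**Figure D1:**
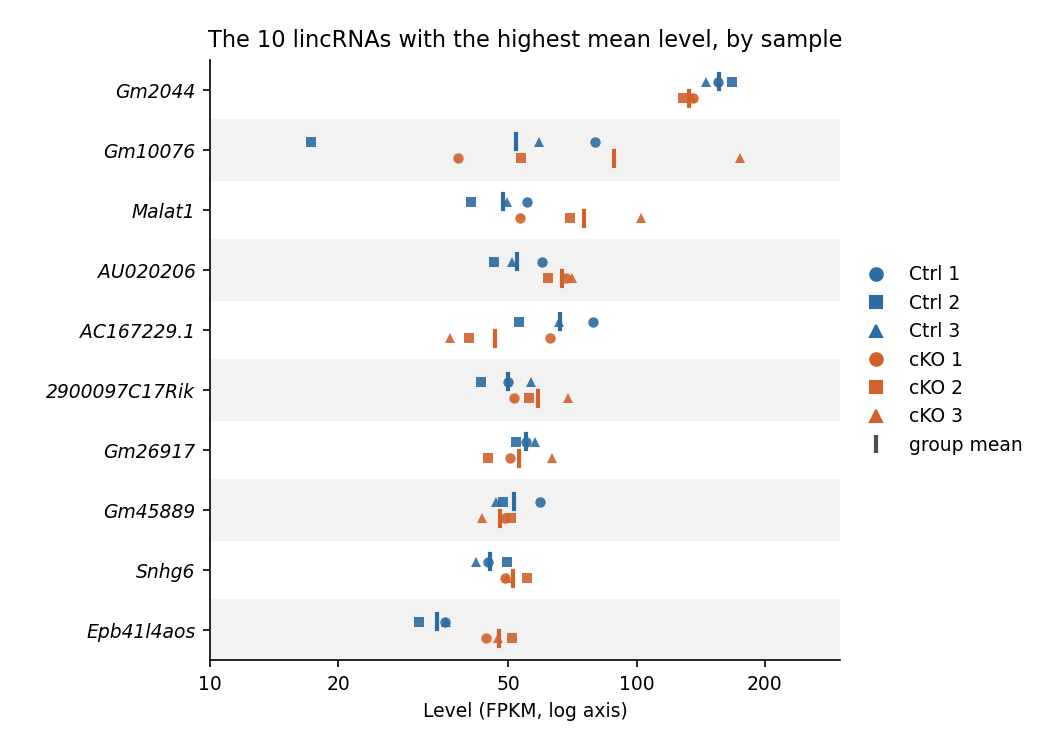
Level in FPKM (log axis) of the 10 members with the highest mean, 1 row a gene, with a symbol for each of the 3 Ctrl samples (blue) and 3 cKO samples (orange) and a bar at each group mean. *Gm2044* stands apart at 128 to 168 FPKM, and *Gm10076* spreads from 17.2 to 174 FPKM within the groups.

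A few members varied between samples of the same group far more than between the groups, and these were chosen for display after their values were seen. *Gm49083* was at 6.45 FPKM in cKO 1 and at no more than 0.699 FPKM in any other sample. *E330017L17Rik* was at 0.468, 8.28 and 5.80 FPKM in Ctrl, against 5.49, 1.54 and 14.2 FPKM in cKO, and *Gm37350* was at 6.91, 6.71 and 3.85 FPKM in Ctrl, against 11.0, 31.0 and 1.24 FPKM in cKO. The highest and the lowest value of *Gm37350* were both in cKO samples, and for *E330017L17Rik* the values of the groups were interleaved. The median residual SD of a member on the log2(FPKM + 1) scale was 0.226, against 0.139 for protein-coding genes tested. Among genes of 1 to 10 FPKM it was 0.238 for members and 0.143 for protein-coding genes, which have more reads at such levels because they are longer.

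Between the groups, no lincRNA passed the test. The fit was limma on log2(FPKM + 1) across all 16206 genes that averaged 0.5 FPKM or more, and a gene was called at a Benjamini-Hochberg adjusted p of 0.05 or less. It called 0 of 237 members and 0% of all genes tested, and the smallest adjusted p of a member was 0.076. At an unadjusted p under 0.05, 15 members were lower in cKO, or 6.33%, where 9.31% of all genes tested were, and 30 were higher, or 12.7%, where 6.6% of all genes tested were. All 3 cKO values lay below all 3 Ctrl values for 23 members (9.70%, against 12.8% of all genes tested) and above them for 32 members (13.5%, against 10.3%). In both directions together this was 23.2% of members and 23.1% of all genes. limma voom on whole reads recovered from the FPKM values called 1 member lower, *1700001L05Rik*, and 0 higher, where it called 0.358% and 0.136% of all genes tested lower and higher. These counts include members that entered through the group in which they were higher. Among the 199 members with at least 1 FPKM in both groups, a choice that leaves out those with the lowest cKO values, 7 were lower and 27 higher at an unadjusted p under 0.05 in limma, 16 were lower and 27 higher without overlap, and limma voom called 0.

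The median log2 difference of the members was 0.05, with quartiles of -0.16 and 0.24, against 0.003 for all genes tested and -0.004 for protein-coding genes. The mean difference was above 0 for 136 members and below 0 for the others. For 112 members it lay within 0.2 of 0, and for 5 it was at least 1 in size. Of all 16206 genes tested, the difference was above 0 for 8180, within 0.2 of 0 for 10407 and at least 1 in size for 300. The largest differences among the members were those of *1700018B24Rik* at -2.001 and of *Gm12111* at 1.05, the latter with 0.177, 1.05 and 0.173 FPKM in Ctrl, against 2.55, 1.20 and 2.23 FPKM in cKO. *Gm12111* was thus a member only through its cKO values. The 398 other long noncoding genes tested at 1 FPKM or more had a median of 0.07, and 14.1% of them were higher without overlap beside 13.5% of members.

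**Figure D2:**
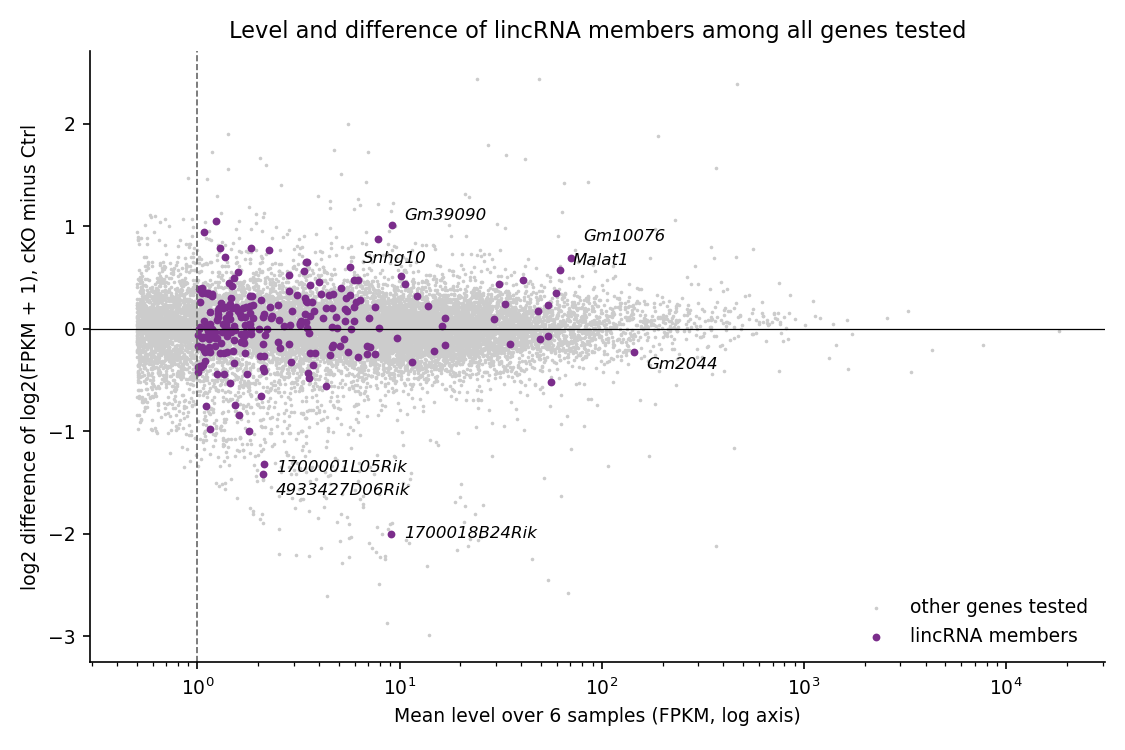
Mean level over the 6 samples (FPKM, log axis) against the difference cKO minus Ctrl of the group means of log2(FPKM + 1), for the 237 members (purple) and the other genes tested (grey), with the limit of 1 FPKM dashed. Most members lie among the weak genes. Their differences run from -2.001 for *1700018B24Rik* to 1.05 for *Gm12111*, a member only through its cKO values.

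Apart from *Gm2044*, the members described as lower in every cKO sample were named by the size of their limma p. *1700001L05Rik* (chr15:83353847-83367282, minus strand) was at 3.02, 4.63 and 2.80 FPKM in Ctrl, against 0.530, 1.06 and 0.773 FPKM in cKO, 22.6% of the Ctrl mean. The groups were far apart, with 284 to 539 reads per Ctrl sample and 51 to 108 per cKO sample, and its log2 difference was -1.32 ± 0.19 (limma adjusted p = 0.076). It fell under limma voom, by 2.16 on the log2 scale of read counts (adjusted p = 0.034). Its nearest coding gene, *Arfgap3*, was at 9.09 to 9.91 FPKM in Ctrl, against 9.90 to 11.0 FPKM in cKO.

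*1700018B24Rik* (chr3:48605732-48609102, minus strand) was at 10.4, 22.5 and 12.5 FPKM in Ctrl, against 1.29, 4.24 and 3.71 FPKM in cKO, 20.3% of the Ctrl mean. Ctrl 2 was far above the other samples, and the lowest Ctrl value was more than the highest cKO value, with a log2 difference of -2.001 ± 0.37 (limma adjusted p = 0.10). It lies in a gene-poor stretch, 1134194 bases from its nearest coding gene, *Pcdh18*, a protocadherin. *4933427D06Rik* was at 2.33, 6.49 and 2.09 FPKM in Ctrl, against 0.589, 0.781 and 0.444 FPKM in cKO, again with Ctrl 2 highest and no overlap (-1.41 ± 0.33, limma adjusted p = 0.14).

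*Gm32885* was at 2.43, 3.74 and 2.02 FPKM in Ctrl, against 0.676, 1.32 and 0.583 FPKM in cKO (-0.998 ± 0.22, limma adjusted p = 0.12). *Gm10451*, whose promoter window held the octamer, was at 2.08, 2.40 and 1.16 FPKM in Ctrl, against 0.433, 0.264 and 0.623 FPKM in cKO (-0.98 ± 0.20, limma adjusted p = 0.11). The groups did not overlap for either, though each had as few as 11 reads in a cKO sample. *Gm40614* and *5830454E08Rik* had 51.6% and 53.2% of their Ctrl means in cKO, and *Gm17586*, which starts 168 bases from *Mafg* in the opposite direction, had 73.3%. With the number as a block, a fit in which each Ctrl sample is matched to the cKO sample of the same number, *1700001L05Rik* (adjusted p = 0.037), *1700018B24Rik* (0.033) and *Gm32885* (0.048) fell in limma, where 0.518% of all genes tested were called lower and 0.0864% higher, but the numbers were not shown to pair the samples. *1700001L05Rik*, *4933427D06Rik*, *Gm32885* and *Gm10451* had means under 1 FPKM in cKO and so were members only through their Ctrl values.

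The lincRNAs above were picked for being lower in cKO, and most germ cell markers were lower as well. Of 20 such genes, among them *Ddx4*, *Dazl* and *Stra8*, 19 were tested and 16 of those were lower in every cKO sample, none was higher without overlap, and none was at 0 in all samples. Their summed level was 256, 613 and 278 FPKM in Ctrl, against 77.7, 119 and 88.5 FPKM in cKO, with Ctrl 2 highest, and their median log2 difference was -1.57, where limma called 0 (smallest adjusted p = 0.066) and limma voom 5. Among the 23 members lower without overlap, Ctrl 2 was the highest sample for 14, as it was for 1479 of the 2071 genes tested that were lower without overlap. The part of germ cell number in the lincRNA values was not tested. Of 12 Sertoli cell markers the median difference was -0.07, and 3 were lower (*Cldn11*, *Gata1* and *Aard*) and 1 higher (*Amh*) without overlap, with a smallest limma adjusted p of 0.062 and 1 called by limma voom. Of 6 peritubular myoid markers the median was -0.35, with 2 lower and 1 higher without overlap. Of all genes tested, 12.8% were lower and 10.3% higher without overlap.

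**Figure D3:**
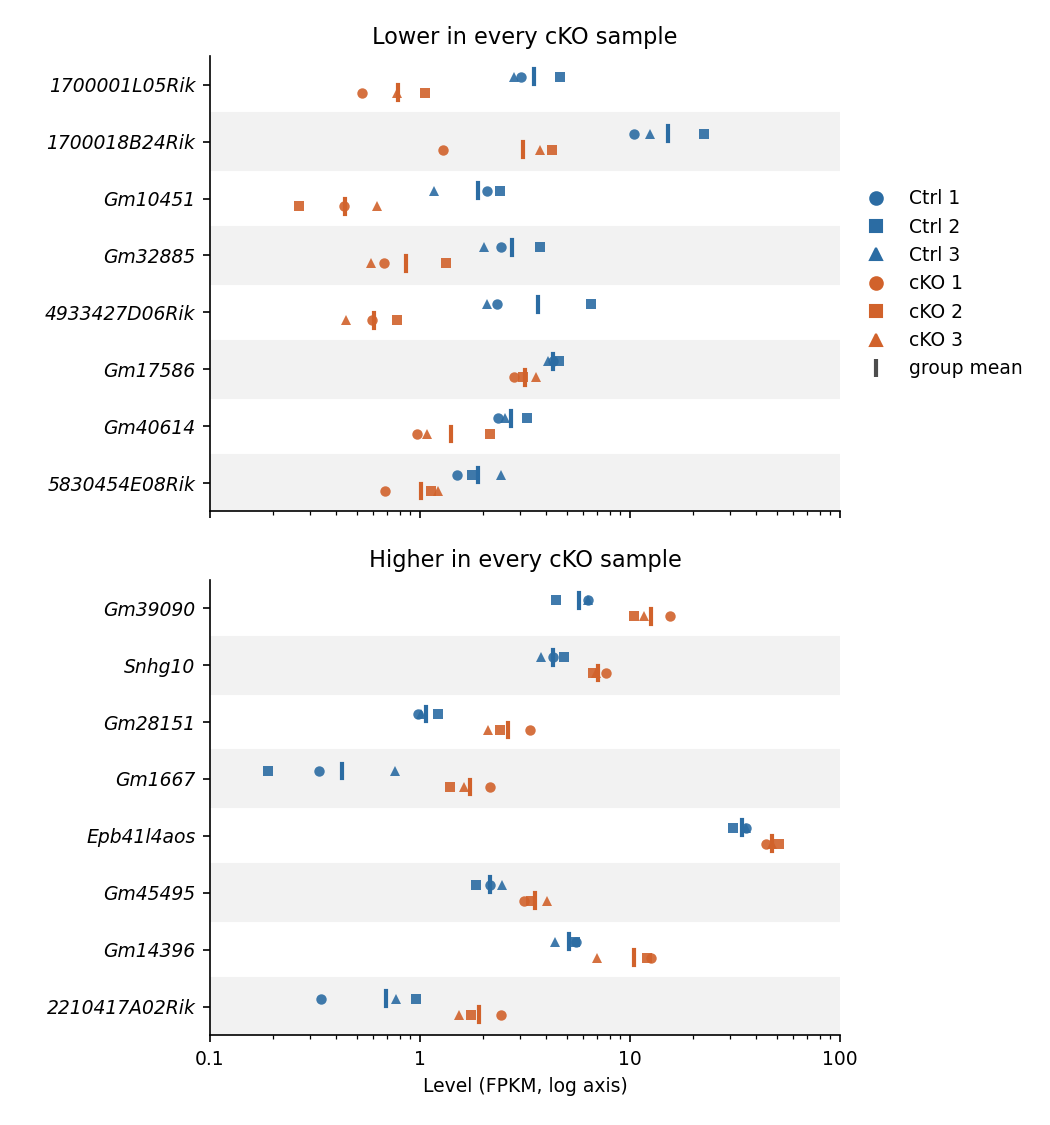
Level in FPKM (log axis) of the 8 members with the smallest limma p among those lower (top) and higher (bottom) in every cKO sample, with a symbol for each of 3 Ctrl (blue) and 3 cKO (orange) samples and bars at the group means. *1700001L05Rik* lies at 2.80 to 4.63 FPKM in the Ctrl samples and 0.530 to 1.06 in the cKO samples, and for *Gm39090* the order is turned, with 4.45 to 6.34 FPKM against 10.5 to 15.5.

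Among the members that were higher in every cKO sample, *Gm39090* (chr7:127691935-127700793, plus strand) was at 6.29, 4.45 and 6.34 FPKM in Ctrl, against 15.5, 10.5 and 11.7 FPKM in cKO. The lowest cKO value exceeded the highest Ctrl value by a wide margin, and the log2 difference was 1.02 ± 0.17 (limma adjusted p = 0.099, and 0.042 with the number as a block). It overlaps *Bcl7c* on the opposite strand, a gene of the BAF chromatin remodelling complex, at 12.96 to 15.8 FPKM in Ctrl, against 17.7 to 19.996 FPKM in cKO. Their exons do not overlap, but whether strand was used in the counting is not given in the sources used here, so reads from introns of either cannot be told apart.

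*Gm14396*, which ends 362 bases from *Hoxd9*, was at 5.52, 5.46 and 4.40 FPKM in Ctrl, against 12.5, 12.0 and 6.97 FPKM in cKO, with cKO 3 nearest to the Ctrl range (0.87 ± 0.21, limma adjusted p = 0.14). *Hoxd9*, a homeobox gene of the body axis, was at 36.0 to 38.5 FPKM in Ctrl, against 50.1 to 68.3 FPKM in cKO (0.59 ± 0.12, limma adjusted p = 0.11). Both groups were thus apart for the lincRNA and for its neighbour. Of the exon bases of *Gm14396*, 21.5% overlap exons of *Gm28793*, so the counts of *Gm14396* are less certain. *Gm28151* was at 0.974, 1.21 and 1.01 FPKM in Ctrl, against 3.34, 2.39 and 2.11 FPKM in cKO, and *Gm45495* at 2.14, 1.85 and 2.45 FPKM in Ctrl, against 3.14, 3.38 and 4.04 FPKM in cKO. Both have a single exon. *Gm28151* overlaps *Slc39a10* on the same strand, outside its exons, and that gene was at 22.2 to 30.8 FPKM over the 6 samples. Reads from introns of *Slc39a10* cannot be told apart from those of *Gm28151*. *Gm45495* lies 3270 bases downstream of *Smim20* on the same strand. *Gm1667* and *2210417A02Rik*, members only through their cKO values, had no more than 10 reads in a Ctrl sample and 13 to 21 in a cKO sample, so their sizes are poorly measured. Beside these, 3 of 7 Leydig cell markers were higher in every cKO sample, where 10.3% of all genes tested were. The Leydig cell markers had a median of 0.44 and a summed level of 433 to 629 FPKM in Ctrl, against 663 to 755 FPKM in cKO. The 5 red cell markers tested had a median of 0.69 without a gene free of overlap. For 5 endothelial markers the median was 0.22, with 1 higher and 0 lower without overlap. For 7 macrophage markers it was 0.03, without a gene free of overlap. The part of these cells in the higher values was not tested.

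The snoRNA hosts among the members stood together. A snoRNA host is spliced like a coding gene, its introns release small nucleolar RNAs that guide ribosomal RNA modification, and the spliced remainder is often short-lived. All 6 members on the list of hosts, *Snhg6*, *Snhg10*, *Snhg12*, *Snhg18*, *Snhg20* and *Epb41l4aos*, had a higher mean in cKO, 4 of them without overlap. This direction held under each scaling and with each library left out. In the annotation used here, *Snhg10* and *Snhg20* held the gene of a small Cajal body RNA and no snoRNA gene. *Snhg10* was at 4.32, 4.86 and 3.76 FPKM in Ctrl, against 7.69, 6.68 and 6.85 FPKM in cKO, 64 reads at most, with a log2 difference of 0.61 ± 0.11 (limma adjusted p = 0.10). *Epb41l4aos* was at 35.5, 30.9 and 35.7 FPKM in Ctrl, against 44.3, 51.1 and 47.4 FPKM in cKO (0.47 ± 0.09, limma adjusted p = 0.11).

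*Snhg20* was at 10.6, 10.4 and 11.0 FPKM in Ctrl, against 15.6, 11.7 and 13.6 FPKM in cKO, and *Snhg18* at 30.4, 30.9 and 29.2 FPKM in Ctrl, against 39.6, 34.4 and 34.0 FPKM in cKO. For both the cKO samples lay above the Ctrl samples, by 0.32 ± 0.11 and 0.24 ± 0.09 on the log2 scale, with cKO 1 highest. *Snhg6* and *Snhg12* overlapped between the groups, at 0.17 ± 0.09 and 0.21 ± 0.12. Of the whole list of 21 hosts, which is mostly of genes with other labels, 19 were found and 17 tested. Of these, limma called 0, 9 were higher without overlap, *Gas5* at 40.6 to 49.04 FPKM in Ctrl, against 56.0 to 59.2 FPKM in cKO among them, and 1, *Snhg11*, was lower. Their median log2 difference was 0.24, beside 0.003 for all genes tested, and 10.3% of all genes tested were higher without overlap.

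By position in GENCODE vM21, 15 members held small RNA genes, with 12 genes of snoRNAs or small Cajal body RNAs in 8 members and 15 microRNA genes in 9. *Mir17hg* was at 5.17, 7.71 and 3.85 FPKM in Ctrl, against 5.88, 5.25 and 3.90 FPKM in cKO, and *6720427I07Rik*, the host of let-7d, at 6.85, 10.3 and 6.71 FPKM in Ctrl, against 7.82, 9.16 and 6.81 FPKM in cKO. In both the groups overlapped, with log2 differences of -0.10 ± 0.23 and 0.01 ± 0.17. *2900076A07Rik*, which holds miR-1839, was at 4.87, 4.59 and 4.87 FPKM in Ctrl, against 6.31, 6.34 and 5.75 FPKM in cKO, all above Ctrl (0.30 ± 0.09, limma adjusted p = 0.18). *Mir142hg* was at 0.919, 0.781 and 1.57 FPKM in Ctrl, against 1.89, 1.34 and 2.65 FPKM in cKO, with overlap and no more than 11 reads in a sample. *E130102H24Rik* was at 3.55 to 4.52 FPKM in Ctrl, against 6.85, 6.33 and 2.40 FPKM in cKO, so cKO 3 lay below Ctrl and the other cKO samples above it.

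**Figure D4:**
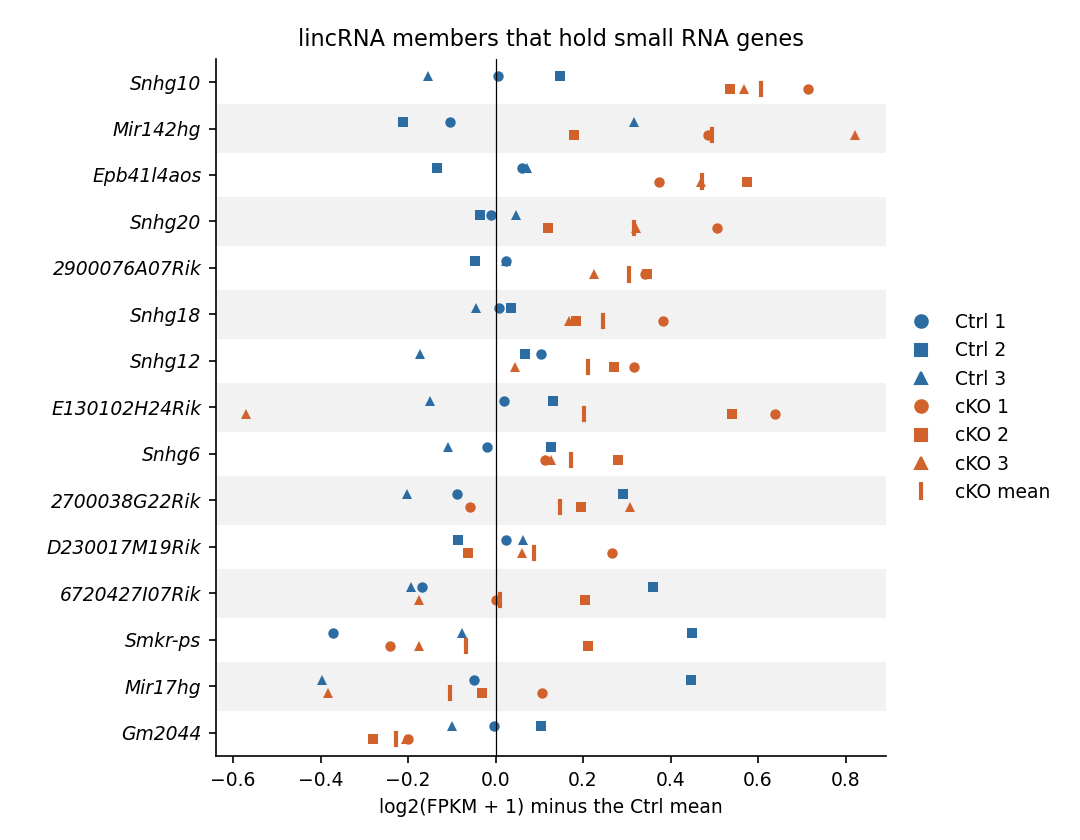
Each sample's log2(FPKM + 1) minus the mean of the 3 Ctrl samples for the 15 members that hold small RNA genes, sorted by the cKO mean (bar), with Ctrl samples in blue and cKO samples in orange. *Snhg10* is at the top with a cKO mean 0.61 above Ctrl and *Gm2044* at the bottom with -0.23, and the snoRNA hosts of the Snhg family all lie to the right of 0 by their means.

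Of the nuclear body RNAs listed, *Malat1* and *Neat1* were members and *Miat* was below the limit. *Neat1*, the scaffold of paraspeckles, was at 4.001, 2.74 and 3.28 FPKM in Ctrl, against 3.22, 3.698 and 3.66 FPKM in cKO, with a log2 difference of 0.07 ± 0.13 (limma adjusted p = 0.83). The cKO values lay inside the Ctrl range. Among the genes of proteins that work with these RNAs, limma called 0 of 9 paraspeckle proteins (median 0.04), 0 of 12 nuclear speckle proteins (median 0.06), 0 of 2 Pumilio proteins (median 0.06) and 0 of 8 nuclear RNA turnover factors (median -0.01). Without overlap, 2 paraspeckle and 3 speckle protein genes were higher and 2 turnover genes were lower. Of all genes tested, 10.3% were higher and 12.8% lower without overlap, and these lists are short.

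Of 43 described regulatory RNAs listed, 4 were members. Beside *2900097C17Rik*, *Bvht*, known from the heart lineage, was at 17.9, 17.4 and 17.7 FPKM in Ctrl, against 13.7, 18.7 and 15 FPKM in cKO. *Lockd*, which is transcribed downstream of the cell cycle inhibitor gene *Cdkn1b*, had a log2 difference of 0.04 ± 0.12, and *Platr26*, named for its link to pluripotent cells, one of -0.44 ± 0.28. The groups overlapped for all 4. Of the 13 listed genes tested, limma called 0, and their median was 0.04.

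Many members lay close to coding genes. The nearest coding gene started within 5 kb in the opposite direction for 46 members, was overlapped on the opposite strand by 27 and on the same strand by 9, lay within 5 kb upstream on the same strand for 20, lay within 5 kb in another way for 27, and was over 5 kb away for 108. Among the 46 with a divergent start, the log2 differences of lincRNA and coding gene had Pearson's r = 0.36 across gene pairs, and among 21 tested pairs on opposite strands r = 0.44, or 0.33 without *Gm2694* and its partner *Cbln1*. Among 84 tested pairs over 5 kb apart, r was -0.09. It was 0.26 among the 20 tested pairs with the lincRNA downstream on the same strand within 5 kb. Pairs within 5 kb in another way, 20 of them tested, had r = 0.09, and all 196 tested pairs together had r = 0.10. Pairs of genes in the same libraries share their errors and are no replicates, so these values are a description.

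*2010015M23Rik* (chr11:88039578-88047360, minus strand), singled out after its values were seen, starts 13 bases from *Srsf1* in the opposite direction. It was at 0.876, 1.36 and 1.31 FPKM in Ctrl, against 1.54, 0.999 and 1.03 FPKM in cKO, with 17 to 31 reads per sample. Its groups overlapped, with a log2 difference of 0.003 ± 0.16, beside -0.85 ± 0.09 for *Srsf1*. Without this pair, r among divergent pairs was 0.43. *Snhg10*, which starts 409 bases from *Glrx5*, also differed from its partner, which was at 15.5 to 19.8 FPKM in Ctrl, against 12.9 to 19.4 FPKM in cKO (-0.13 ± 0.16).

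**Figure D5:**
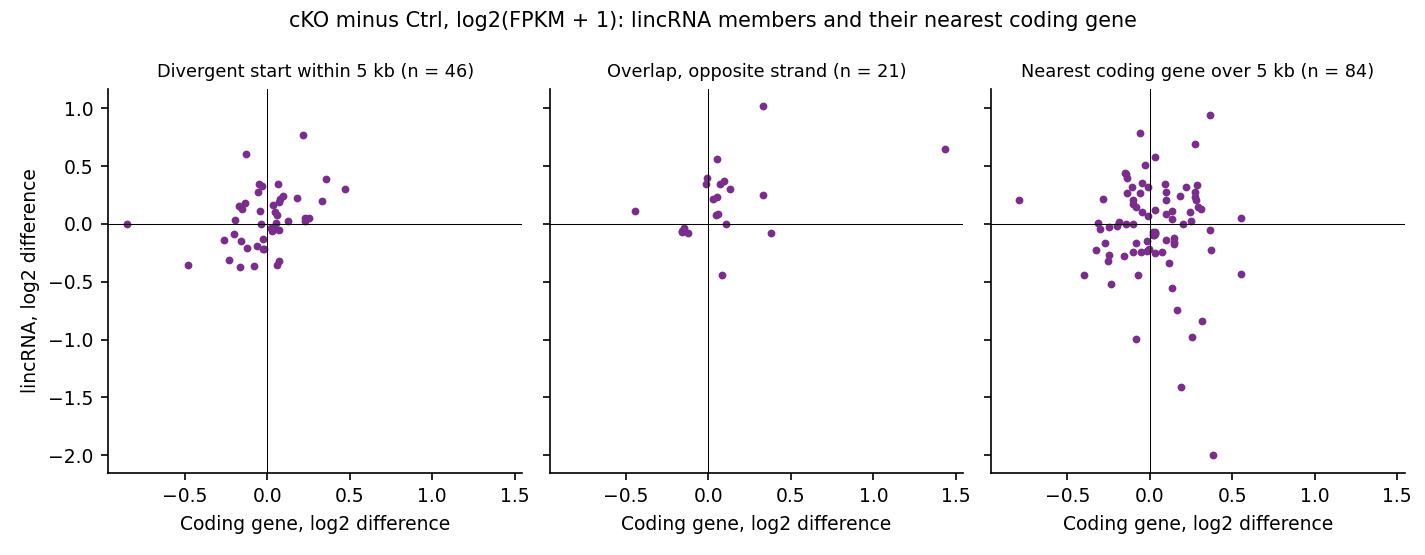
Difference cKO minus Ctrl on the log2(FPKM + 1) scale of the nearest coding gene (horizontal) and of the lincRNA member (vertical), 1 point a pair, for divergent starts within 5 kb (46 pairs), overlaps on opposite strands (21) and coding genes over 5 kb away (84). Pearson's r is 0.36, 0.44 and -0.09, and the lowest lincRNA value among the plotted pairs, -2.001, lies in the panel of coding genes over 5 kb away.

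Exons of 53 members overlapped an exon of another gene, 13 on the same and 43 on the opposite strand. For 43 members, over 10% of their stretches of 50 bases were shared with transcripts of other genes. Their counts are less certain. Without overlap of exons, 184 members were left, of which 21 (11.4%) were lower and 24 (13.04%) higher without overlap of the groups, beside 12.8% and 10.3% of all genes tested. In the longest transcript of each member, the median GC content was 47.6%, against 49.9% in protein-coding genes tested. The purine-rich pentamer GGAGA, a motif known for SRSF1, occurred at a median of 1.53 per kb in members and 1.91 per kb in protein-coding genes, and GAAGAA at 0.397 and 0.675 per kb. Across the 237 members, Spearman's rho of GGAGA per kb with the log2 difference was -0.03, which is a description across genes of the same libraries.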

How the data were processed

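RNA sequencing was done on 3 Ctrl and 3 cKO testes at 5 dpp. The authors deposited 1 table of FPKM values per gene and sample, made from reads aligned to mm10 with HISAT2 (2.0.5, from the submitters' processing notes) and counted per gene with FeatureCounts, per the study's methods; the annotation release and use of strand are not given in the sources used here. Each FPKM times gene length was a whole multiple of the worth of 1 read (100% of values within 0.01 of a whole read), so reads were recovered. limma (3.58.1, R 4.3.3) with a mean-variance trend was fitted to log2(FPKM + 1) for all genes averaging 0.5 FPKM or more, two-sided and adjusted over all 16206 genes. This scale understates differences of weak genes. limma voom was run on the recovered reads as an alternative. The fit was tested on simulated data.

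The members and the lists of genes were chosen with earlier results of these data known. Named were the 10 members with the highest mean, the 8 with the smallest p lower and the 8 higher without overlap of the groups, members on lists by role, and any called. Alternatives were the pseudocount, filters on low values, scaling by TPM, quantiles or library totals, no trend, a replicate block, limma voom, each library left out, members of at least 2 FPKM and members without exon overlap. Replicates of a group differed by more than sampling noise (chi-square per degree of freedom 10.9 to 28.1). Annotation was from GENCODE vM21, in which all 237 IDs were found and 233 had the deposited coordinates; RefSeq tables (GRCm38.p6) gave promoters and mature microRNAs, the latter for 14 of 15 microRNA genes in members. Floors cover counting error only. Each ± value is the SE of the limma fit, which rests on the spread between samples of the same group.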

Additional observations from a re-analysis of the deposited data

How the results depend on the processing

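The replicate numbers of the labels were not shown to pair the samples: deviations from the group means correlated at 0.066, 0.016 and 0.088 between samples of the same number, and 5 of 6 samples correlated best with their own number. With the replicate block, limma called 3 members lower and 1 higher, in place of 0 and 0 (84 lower and 14 higher of all 16206 genes, in place of 0 and 0), and limma voom called 1 lower; under every other alternative limma called 0 in each direction. *Srsf1* passed the threshold with TPM (-0.858, adjusted p = 0.036), the replicate block (-0.849, 0.033) and limma voom (-0.860, 0.024). Among the 119 members of at least 2 FPKM, 7 were lower and 24 higher at an unadjusted p under 0.05 in limma, 12 were lower and 23 higher without overlap (5.88%, 20.2%, 10.1% and 19.3%, beside 9.31%, 6.6%, 12.8% and 10.3% of all genes tested), and the median log2 difference was 0.091. With a library left out, members without overlap numbered 30 to 36 lower (36 without Ctrl 3, 35 without cKO 2) and 41 to 50 higher (50 without cKO 3), since 5 values overlap less readily than 6. The share of all genes tested was not computed with a library left out, so these counts have no background beside them. The median log2 difference then ranged from 0.014 to 0.082. The log2 differences of 5 named members near 0 crossed it on leaving out a library: *Gm26917* ranged from -0.20 to 0.042, *Gm45889* from -0.17 to 0.0016, *Mir17hg* from -0.30 to 0.12, *Neat1* from -0.034 to 0.18 and *Lockd* from -0.022 to 0.12. Of the named members' values, 499 kept direction and side of the threshold, 5 passed it and 6 changed sign. No scaling moved the median of all genes by more than 0.021. Precision is limited by 3 samples a group and, for 44 members, by fewer than 20 reads.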

Other observations

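Below the limit of 1 FPKM, 194 lincRNA genes with a mean of 0.5 to under 1 FPKM were tested, at a median of 12.3 reads per sample. Their median log2 difference was -0.0006, and limma called 0 of them. At an unadjusted p under 0.05 in limma, 20 were lower (10.3%) and 9 higher (4.64%), beside 9.31% and 6.6% of all genes tested. Without overlap of the groups, 22 were lower (11.3%) and 15 higher (7.73%), beside 12.8% and 10.3% of all genes tested. The 398 other long noncoding genes tested at 1 FPKM or more, such as antisense and processed transcripts, had a median of 0.07 in limma's fit, with 0 called. Of these 398, 21 (5.28%) were lower and 56 (14.1%) higher without overlap. Among these, *Dnm3os*, the host of microRNAs in the Dnm3 locus, was at 11.2, 10.8 and 8.74 FPKM in Ctrl, against 16.7, 13.7 and 12.8 FPKM in cKO, and *Mir22hg* at 11.9, 10.2 and 11.5 FPKM in Ctrl, against 12.9, 15 and 14.6 FPKM in cKO. In both genes every cKO sample lay above every Ctrl sample, and both were named after their values were seen. Of 13 microRNA hosts listed, 7 were tested, with a median of 0.09. Of these, 2 were higher and 1 lower without overlap, beside 10.3% and 12.8% of all genes tested.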
